A study of Mus musculus with 2 samples.

Results

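The genes described here are 9 that mark regulatory T cells or encode receptors that boost T cell activation: Foxp3, Ikzf2, Il2ra, Tnfrsf4, Tnfrsf9, Tnfrsf18, Icos, Cd28 and Ccr8. They were taken by symbol and are 9 of 32285 gene rows in each of 2 droplet single-cell RNA-seq libraries. The libraries came from mice of genotype WT that carried tumours of MC38-OVA, a colon carcinoma line made to express ovalbumin. The Control library came from mice on a control diet, and the Sitagliptin library from mice whose diet held sitagliptin, an inhibitor of the peptidase DPP4. Both were enriched for CD45+ cells with magnetic beads (MACS) and made with the SeekOne DD 5′ kit. The number of mice per library, the dose and the duration of the diet were not stated in the labels. Each diet had 1 library, so there is no replicate error and no test between diets, and all intervals cover counting error only.

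Regulatory T cells restrain other T cells and are common in tumours. Their lineage is set by the transcription factor FOXP3, they often carry the related zinc finger factor Helios (Ikzf2), and they take up interleukin 2 through a receptor with the alpha chain CD25 (Il2ra). OX40 (Tnfrsf4), 4-1BB (Tnfrsf9) and GITR (Tnfrsf18) are receptors of the TNF receptor family that signal through TRAF adaptors to NF-kB. ICOS and CD28 are receptors of the immunoglobulin superfamily that bind B7 ligands on antigen-presenting cells. CCR8 is a chemokine receptor known from regulatory T cells inside tumours. Apart from FOXP3, none of these is restricted to regulatory T cells, since activated effector T cells and some NK cells use several of them.

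The matrices held 8694 and 9766 barcodes with 64139749 and 76788699 UMIs, and no barcode had fewer than 2001 UMIs, so small cells with little RNA can be missing. After removal of likely doublets 8172 and 9180 barcodes remained. Classes were called from marker UMIs alone, and none of the 9 genes is a marker. T cells numbered 203 (Control) and 376 (Sitagliptin), with median depths of 3455 and 3398 UMIs. A further 540 and 443 barcodes carried T cell together with monocyte and macrophage markers and are called mixed T-macrophage barcodes. There were 78 and 124 NK cells, 74 and 75 mature dendritic cells, 1010 and 1320 monocytes, and 4596 and 5608 macrophages. The T cells carried the T cell receptor complex gene Cd3e at 306 and 489 counts per 1000000 UMIs (CPM), against 8.63 and 14.1 CPM in the NK cells, and the macrophage gene C1qa at 18.4 and 17.4 CPM. Cd3e and C1qa are among the markers of the class call, so these values describe the classes and are no independent check of them. Despite the CD45 enrichment, 1200 and 723 barcodes had genes of cells outside the immune system and little Ptprc, the gene for CD45. They were taken as the background for the 9 genes, although they did not lack all of them. Tnfrsf9 stood at 19.7 and 15.4 CPM and Ikzf2 at 8.55 and 7.71 CPM there. The libraries shared 132 barcode sequences, and leaving these out changed no count of genes past 1.5-fold.

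Of the genes that were higher in Foxp3-positive T cells of both libraries, a promoter window of 250 bases before to 50 after the start site was in the RefSeq table for Il2ra, Tnfrsf4 and Tnfrsf18. These 3 are printed for that reason. Of the 9 genes, 6 had a window in the table, which is of build GRCm38.p6. All 3 lie on the plus strand, Il2ra at chr2:11642542-11642841, Tnfrsf4 at chr4:156013445-156013744 and Tnfrsf18 at chr4:156026072-156026371.
Il2ra: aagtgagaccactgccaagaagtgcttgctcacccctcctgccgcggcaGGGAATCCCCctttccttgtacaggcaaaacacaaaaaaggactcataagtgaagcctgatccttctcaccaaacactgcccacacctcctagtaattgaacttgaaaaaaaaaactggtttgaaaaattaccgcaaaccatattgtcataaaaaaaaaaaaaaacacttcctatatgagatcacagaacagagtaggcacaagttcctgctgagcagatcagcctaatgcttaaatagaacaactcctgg
Tnfrsf4: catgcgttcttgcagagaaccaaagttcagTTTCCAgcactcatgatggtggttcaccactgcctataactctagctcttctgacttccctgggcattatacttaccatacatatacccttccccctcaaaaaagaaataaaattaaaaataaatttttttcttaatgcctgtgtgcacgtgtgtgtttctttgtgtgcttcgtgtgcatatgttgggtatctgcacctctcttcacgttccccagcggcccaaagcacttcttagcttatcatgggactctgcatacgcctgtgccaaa
Tnfrsf18: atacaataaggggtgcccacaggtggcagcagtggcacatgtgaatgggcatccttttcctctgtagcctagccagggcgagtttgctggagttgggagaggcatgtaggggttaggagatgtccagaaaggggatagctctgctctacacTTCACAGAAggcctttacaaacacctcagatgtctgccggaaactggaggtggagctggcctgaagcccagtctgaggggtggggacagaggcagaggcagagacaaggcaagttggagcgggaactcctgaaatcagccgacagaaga
Capitals mark matches, on either strand, to 5 short motifs: a form of the NF-kB site (GGG, any 2 bases, TT, any base, CC), TTCNNNGAA, the letters STAT factors bind, TGGAAA for NFAT, TGTGGT for RUNX and TGANTCA for AP-1. The Il2ra window held 1 match to the NF-kB letters, the Tnfrsf4 window 1 match to the NFAT letters and the Tnfrsf18 window 1 match to the STAT letters. Over all 32851 windows of the table the NF-kB letters occurred in 4.79%, the STAT letters in 8.30%, the NFAT letters in 21.4%, the RUNX letters in 16.8% and the AP-1 letters in 7.81%. No motif was thus shared by the 3 windows. In the RefSeq annotation no protein-coding gene lies between Tnfrsf4 and Tnfrsf18, and Cd28, Ctla4 and Icos follow each other in the same way.

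Foxp3 was rare in both libraries, with 53 Control and 77 Sitagliptin UMIs over all kept barcodes. In T cells it stood at 14.7 CPM (95% interval 7.62 to 25.8) with the control diet and 12.9 CPM (7.88 to 19.9) with sitagliptin. Mixed barcodes had 4.20 and 5.90 CPM and macrophages 0.601 and 0.596 CPM, while NK cells and mature dendritic cells had no Foxp3 UMI. The cells with little Ptprc held 1 and 2 Foxp3 UMIs. The order of these classes was the same in both libraries.

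Ikzf2 was at 659 and 559 CPM in T cells, 268 and 227 in NK cells and 171 and 183 in mixed barcodes. It was low in macrophages (25.2 and 26.7 CPM), monocytes (15.4 and 8.10) and mature dendritic cells (6.76 and 13.6), and stood at 8.55 and 7.71 CPM in the cells with little Ptprc. The gene was thus a lymphoid one here, with T cells 2.46-fold over NK cells in each library (1.97 to 3.10 and 2.04 to 2.99). Il2ra was at 221 and 207 CPM in T cells and 51.8 and 40.5 in NK cells. Mature dendritic cells, identified by Ccr7 at 1733 and 1525 CPM and by Fscn1, also carried Il2ra, at 94.6 and 106 CPM. That level was 7.71-fold (5.04 to 11.3) and 9.57-fold (6.71 to 13.3) over macrophages. Of these dendritic cells 4.05% and 5.33% held a T cell marker UMI, a share kept low by the class call, which leaves out barcodes positive for T cell markers. The part of T cell RNA in this Il2ra level was not tested.

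The 3 TNF receptor family genes differed in how far they reached beyond T cells. Tnfrsf4 was at 219 and 155 CPM in T cells and showed 1 UMI in the NK cells of each library. Mature dendritic cells had 8 and 14 Tnfrsf4 UMIs (27.0 and 38.2 CPM). Tnfrsf9 was at 759 and 636 CPM in T cells and reached a like level in NK cells, 788 and 483 CPM. The ratio of T cells to NK cells for Tnfrsf9 was 0.963 (0.834 to 1.11) for Control and 1.32 (1.15 to 1.51) for Sitagliptin. Mature dendritic cells had 318 and 254 CPM of Tnfrsf9, 4.02-fold (3.24 to 4.95) and 3.82-fold (3.07 to 4.70) over macrophages. Tnfrsf18 was at 299 and 236 CPM in T cells, 138 and 113 in NK cells and 64.2 and 57.3 in mature dendritic cells.

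Icos stood at 335 and 352 CPM in T cells, 115 and 102 in NK cells and at 1 and 3 UMIs in mature dendritic cells. Cd28 was at 152 and 167 CPM in T cells and 57.5 and 84.6 in NK cells. Ccr8 was low throughout, with 20.9 and 11.6 CPM in T cells, 18.7 and 15.3 in mixed barcodes and 1 UMI in the NK cells of each library. The T cell marker sum in NK cells was 348 and 344 CPM, against 2416 and 2527 CPM in T cells. Its part in the NK cell levels was not tested. In the plot of level by class, T cells lie highest in both libraries except for Tnfrsf9 in the Control library, where NK cells were higher, and Ccr8 in the Sitagliptin library, where mixed barcodes were.

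**Figure D1:**
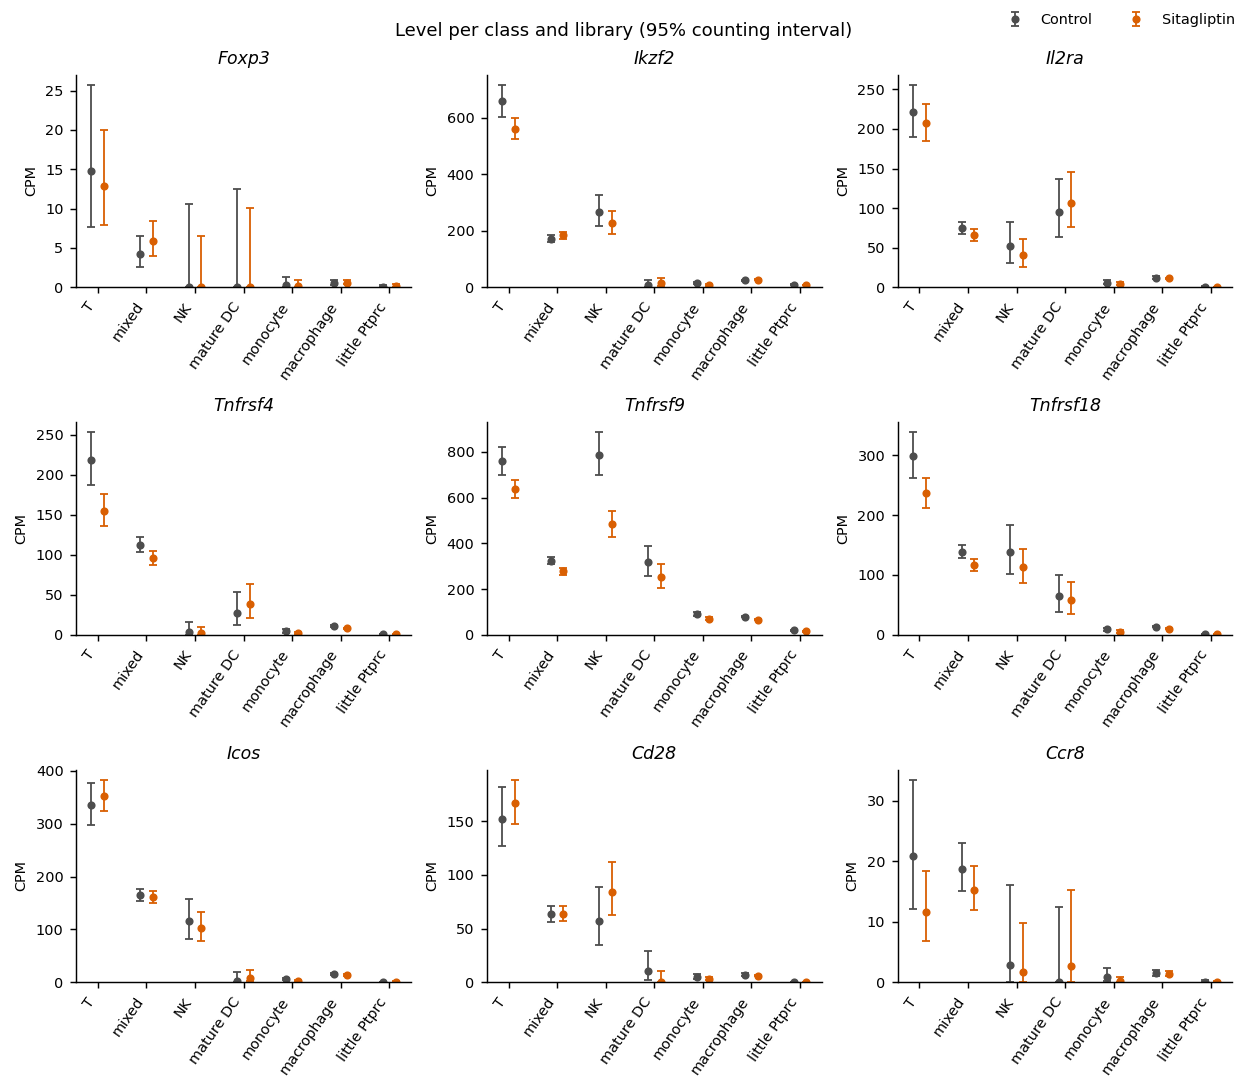
Level of each of the 9 genes in CPM (vertical axis, linear, own scale per panel) in 7 classes of barcodes, in the Control library (grey) and the Sitagliptin library (orange). Points are sums over all barcodes of a class and bars are exact Poisson 95% intervals; Tnfrsf9 reaches 788 and 483 CPM in NK cells, whereas Tnfrsf4 has 1 UMI there in each library.

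Monocytes and macrophages had lower levels of all 9 genes than T cells, and the share that remained without T cell marker UMIs differed from gene to gene. Tnfrsf9 was at 79.0 and 66.5 CPM in macrophages and 90.2 and 69.2 CPM in monocytes, against 19.7 and 15.4 CPM in the cells with little Ptprc, whose median depth was 14974 and 20501 UMIs. With every barcode thinned to 2000 UMIs, 12.7% and 11.2% of macrophages had a Tnfrsf9 UMI, against 3.75% and 2.63% of the cells with little Ptprc. In the 3840 and 4640 macrophages with no T cell marker UMI the Tnfrsf9 level was still 65.6 and 57.0 CPM. Tnfrsf4 was lower by a larger factor, from 10.9 and 7.93 CPM in all macrophages to 2.82 and 1.88 CPM in those with no T cell marker UMI. Icos likewise stood at 15.8 and 13.8 CPM in all macrophages and 5.83 and 4.83 CPM without T cell marker UMIs. Over the whole library macrophages held 36.7% and 40.4% of all Tnfrsf9 UMIs because they are so many, and mixed barcodes held 49.2% and 42.8% of all Tnfrsf4 UMIs.

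T cells without a Foxp3 UMI were divided by Cd4 and by Cd8a and Cd8b1 UMIs. Of these, 135 and 263 had Cd8 UMIs only, 7 and 14 had a Cd4 UMI, and 53 and 84 had neither. Ikzf2 was lowest in the Cd8 group, at 408 and 296 CPM, and reached 1027 and 1125 CPM in the T cells with neither. The ratio of the latter to the former was 2.52 (2.08 to 3.05) and 3.796 (3.24 to 4.45). NK cell marker genes were also higher in the group with neither, at 488 and 594 CPM against 167 and 129 CPM in the Cd8 group, and their part was not tested. Among the T cells with neither, those with at least 2 UMIs of gamma delta receptor genes (6 and 10 cells) had Ikzf2 at 1079 and 1326 CPM and no Tnfrsf4 UMI.

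Tnfrsf9 and Icos pointed the opposite way. Tnfrsf9 was at 830 and 629 CPM in the Cd8 group and 525 and 380 CPM in the group with neither, a ratio of 0.633 (0.510 to 0.781) and 0.604 (0.486 to 0.744). Icos was at 317 and 335 CPM in the Cd8 group and at 188 and 232 CPM in the group with neither. The few T cells with a Cd4 UMI and no Foxp3 UMI carried the most Tnfrsf4 among T cells without Foxp3, 803 and 532 CPM, which was 6.04-fold (3.72 to 9.54) and 4.71-fold (3.14 to 6.89) over the Cd8 group. They also had Tnfrsf18 at 713.5 and 532 CPM, Icos at 832 and 623 CPM and Cd28 at 297 and 319 CPM. With 7 and 14 cells, single barcodes weigh heavily there, and 1 Control barcode gave 30 of the 54 Ikzf2 UMIs.

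**Figure D2:**
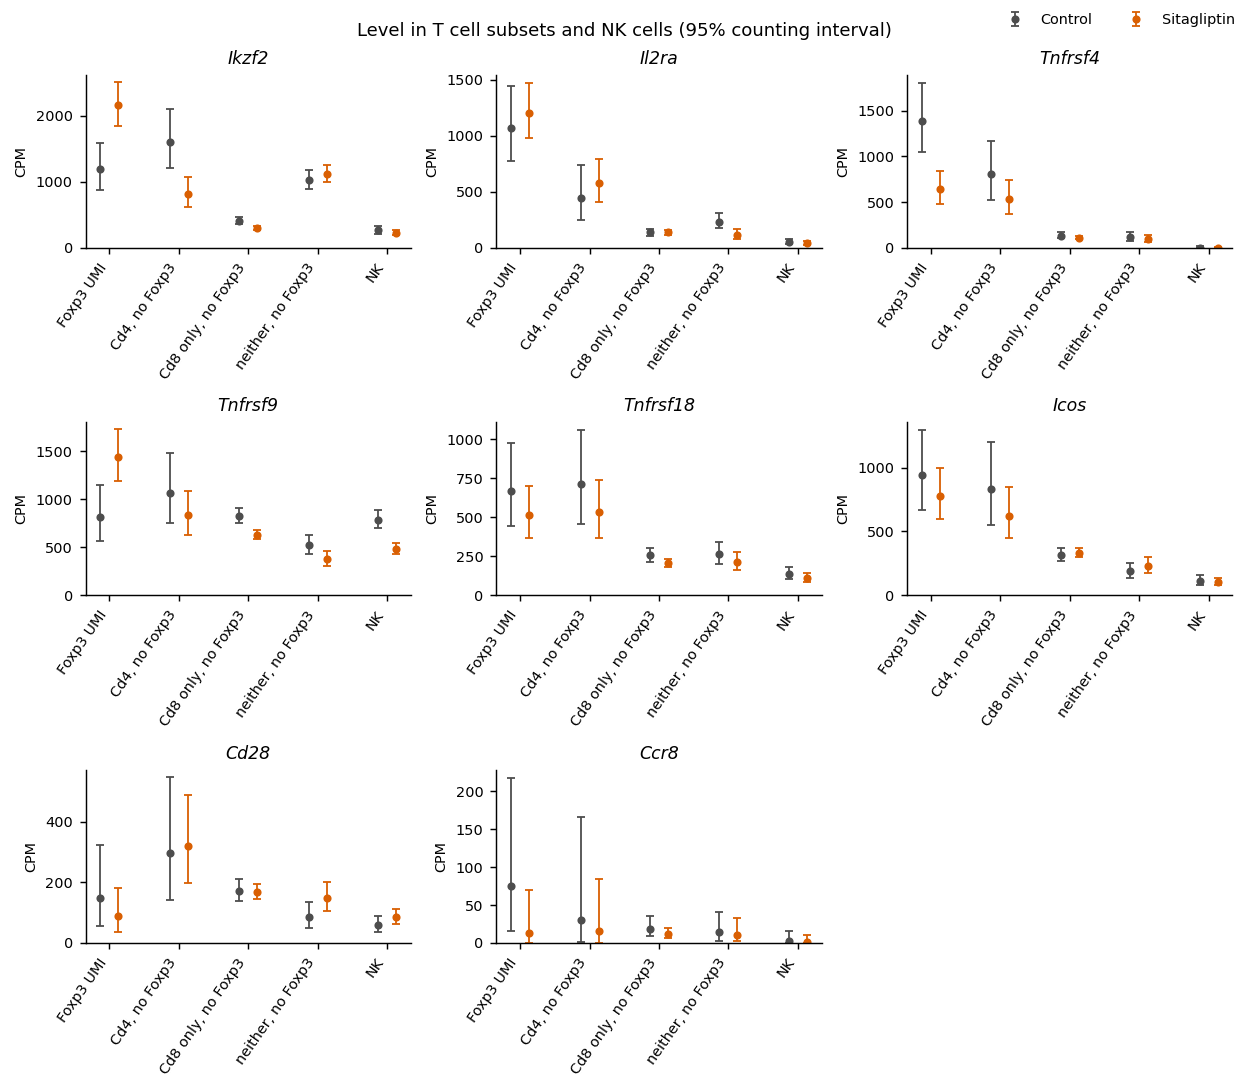
Level of 8 genes in CPM (vertical axis, linear) in T cells with a Foxp3 UMI, in T cells without one that have Cd4 UMIs, Cd8 UMIs only or neither, and in NK cells; grey is the Control library, orange the Sitagliptin library, bars are Poisson 95% intervals. Tnfrsf4 and Icos are high in T cells with Foxp3 or Cd4 UMIs, and Ikzf2 is higher in T cells with neither Cd4 nor Cd8 (1027 and 1125 CPM) than in the Cd8 group.

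A Foxp3 UMI was found in 8 of 203 Control T cells (3.94%, exact binomial 95% interval 1.72 to 7.62) and in 15 of 376 Sitagliptin T cells (3.99%, 2.25 to 6.50). The ratio of the shares, Sitagliptin over Control, was 1.01 (0.437 to 2.35), an interval that holds both a more than 2-fold lower and a more than 2-fold higher share. Mixed barcodes with a Foxp3 UMI were 16 of 540 (2.96%) and 19 of 443 (4.29%), a ratio of 1.45 (0.753 to 2.78). In the cells with little Ptprc, at more than 4 times the depth of the T cells, the shares were 0.0833% and 0.277%. After thinning to 2000 UMIs, the share was 2.96% and 1.33% in T cells, and no cell with little Ptprc kept a Foxp3 UMI. No Foxp3 UMI was found in 78 and 124 NK cells. Taking 3 cells as the limit that a count of 0 allows, shares of up to 3.85% and 2.42% of cells with a UMI are possible, and the exact binomial upper bounds are 4.62% and 2.93%.

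Each of the Foxp3-positive T cells rested on few Foxp3 UMIs, 5 of 8 and 11 of 15 on a single one, and none had more than 3. Of the 8 Control cells 2 had a Cd4 UMI, 2 had Cd8 UMIs only and 4 had neither. Of the 15 Sitagliptin cells 5 had a Cd4 UMI, 1 of them with Cd8 UMIs as well, while 1 had Cd8 UMIs only and 9 had neither. Cd4 itself was sparse in all T cells, with 16 and 35 UMIs in total.

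Foxp3-positive T cells carried several-fold more Il2ra and Tnfrsf4 than other T cells in both libraries, and more Ikzf2, Tnfrsf18 and Icos. Every one of the 8 Control cells had Ikzf2, Il2ra, Tnfrsf4 and Icos UMIs. Their Il2ra counts ran from 1 to 14 UMIs with a median of 4.5, and those of the 15 Sitagliptin cells from 0 to 15 with a median of 4. Summed over Control cells, Il2ra was at 1068 CPM against 177 CPM in Foxp3-negative T cells, a ratio of 6.03 (4.18 to 8.55). Summed over Sitagliptin cells it was at 1206 against 153 CPM, a ratio of 7.88 (6.14 to 10.1). Median depth was 3812 against 3406 UMIs and 5284 against 3368 UMIs, so the Foxp3-positive cells were the deeper ones.

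Tnfrsf4 counts ran from 1 to 14 UMIs (median 6) in the Control cells and from 0 to 11 (median 2) in the Sitagliptin cells. The summed level was 1391 against 158 CPM, a ratio of 8.82 (6.31 to 12.2), and 640.5 against 129 CPM, a ratio of 4.98 (3.58 to 6.82). Ikzf2 ran from 2 to 12 UMIs (median 4.5) in the Control cells and from 4 to 21 (median 11) in the Sitagliptin cells. Its Control ratio was 1.89 (1.37 to 2.55), from 1192 and 631 CPM, and its Sitagliptin ratio 4.57 (3.84 to 5.41), from 2160.0 and 473 CPM. The Sitagliptin interval lies above the Control one, with 8 and 15 cells behind them and no test of the difference. Cycling cells, as called below, were 5 of the 8 Control and 4 of the 15 Sitagliptin cells, and their part in these ratios was not tested. Tnfrsf18 was 2.40-fold (1.55 to 3.59) and 2.33-fold (1.64 to 3.23) higher in Foxp3-positive T cells, and Icos 3.11-fold (2.15 to 4.39) and 2.36-fold (1.79 to 3.09).

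The remaining 3 genes showed no such pattern in both libraries. Tnfrsf9 had a Control ratio of 1.08 (0.739 to 1.54), from 819.8 and 756 CPM, and a Sitagliptin ratio of 2.44 (1.99 to 2.96), from 1444 and 592 CPM. Cd28 had 6 and 7 UMIs in Foxp3-positive T cells, with ratios of 0.977 (0.352 to 2.19) and 0.513 (0.204 to 1.07). Ccr8 had 3 UMIs and 1 UMI there, too few for a ratio to say more than that its interval holds 1 in both libraries. Of all 8 genes other than Foxp3, 5 were at least 1.5-fold higher in both libraries, against 9.28% of the 8126 genes with at least 20 UMIs over all T cells. Thinned to 2000 UMIs, 87.5% and 80.0% of Foxp3-positive T cells still had an Il2ra UMI, against 20% and 16.1% of the Foxp3-negative ones. In T cells with a Cd4 UMI, only 2 and 5 with Foxp3 against 7 and 14 without, Il2ra stayed 4.03-fold and 2.45-fold and Tnfrsf4 2.80-fold and 1.97-fold higher. The ratios of Icos there were 1.08 and 1.23, those of Ikzf2 1.03 and 3.15, and those of Tnfrsf18 0.840 and 0.683.

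Among all other genes with at least 20 UMIs in Foxp3-positive T cells, those with the largest ratio in the weaker of the libraries were Itgb8, Klrg1, Bmyc, Il1rl1, Areg, Maf, Cep85l, Cxcl2 and Sh3rf1. Both the filter and the ranking used the Foxp3-positive cells, 8 and 15 in number. Large ratios were thus selected for, and they describe these cells without being independent support for what the cells are. Areg, the growth factor amphiregulin that tissue regulatory T cells are known to make, was at 2857 against 193 CPM (Control) and 1758 against 169 CPM (Sitagliptin). Il1rl1, the receptor for interleukin 33, was at 373 against 14.2 CPM and at 188 against 17.01 CPM, from 3 of the 8 and 5 of the 15 Foxp3-positive cells. Itgb8, an integrin chain that activates TGF-beta, was at 273 against 11.6 CPM and at 138 against 2.04 CPM. From a list of 26 regulatory T cell genes, chosen with earlier results of these data known, 23 had at least 20 UMIs over all T cells, and of these 16 were at least 1.5-fold higher and 3 lower in both libraries, against 9.28% higher and 16.5% lower among all genes. Ctla4, the inhibitory receptor for B7 ligands, was among the 16, at 1615 against 306 CPM and at 716 against 219 CPM. The 3 lower genes were Lag3 (ratios of 0.582 and 0.276), Nrp1 (0 and 0.228) and Nt5e (0.384 and 0.234). They had 5, 1 and 2 UMIs in the Foxp3-positive T cells of both libraries together. Some of the 16 were sparse as well, such as Izumo1r with 6 and Itgae with 9 UMIs there. These 5 genes were named after their values were seen. Of 15 TRAF and NF-kB genes all were counted, 5 were higher and none lower. The 5 were Traf1, Traf2, Traf3, Nfkb1 and Nfkbia, named after their values were seen. Traf2 had only 1 and 3 UMIs in the Foxp3-positive T cells, too few for its ratio to be read. Traf1, with 9 and 18 UMIs, lay just past the fold at 1.52 and 1.69.

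Some of these genes are also known from innate lymphoid cells, whose list here held Il1rl1, Rora, Il7r, Il5 and Il13. Beside Il1rl1, Rora was higher in Foxp3-positive than in Foxp3-negative T cells (422 against 226 CPM and 578 against 267 CPM). Il7r was at 224 against 220 CPM and at 276 against 231 CPM, Il5 had 9 UMIs, all in 1 cell, and none in the Foxp3-positive cells, and Il13 had none. The T cell marker sum was lower in the Foxp3-positive cells, 1565 against 2460 CPM and 1243 against 2596 CPM, although Trac was at 224 against 186 CPM and at 239 against 173 CPM. The part of other lymphoid cells in these values was not tested.

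**Figure D3:**
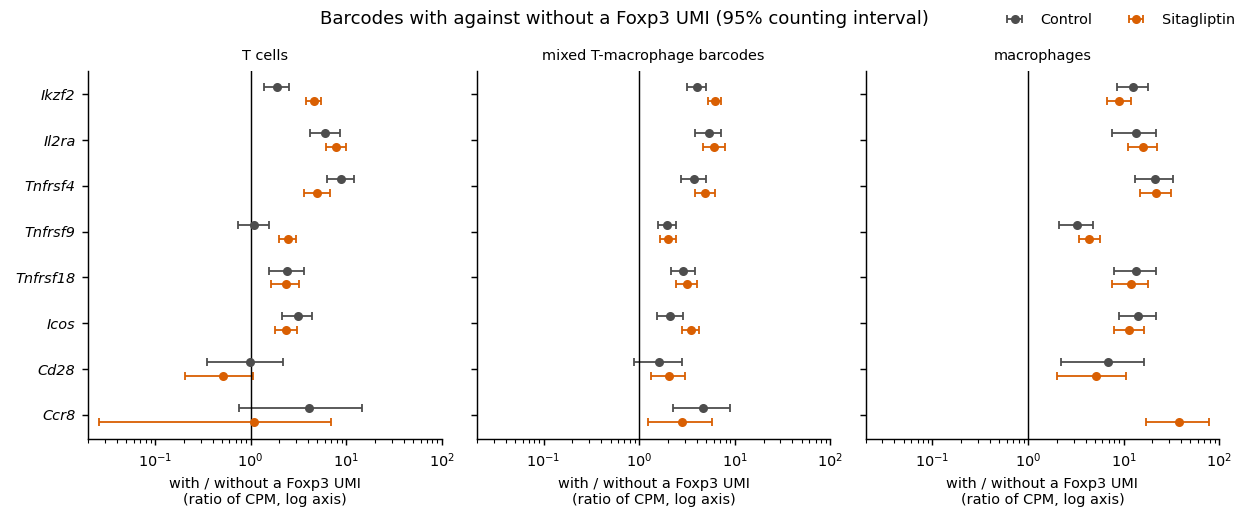
Ratio of CPM, barcodes with over barcodes without a Foxp3 UMI (horizontal log axis), for 8 genes in T cells, mixed T-macrophage barcodes and macrophages; grey is the Control library, orange the Sitagliptin library, bars are 95% counting intervals. Il2ra and Tnfrsf4 lie right of 1 in all 3 classes, Cd28 in T cells at 0.977 and 0.513, and Ccr8 in Control macrophages is not drawn since no UMI was found.

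In mixed T-macrophage barcodes, none of which is in the T cell class, all 8 other genes were at least 1.5-fold higher with a Foxp3 UMI in both libraries, against 6.19% of 10978 genes. Cd28, which had ratios below 1 in T cells, was at 1.62 (0.875 to 2.77) and 2.04 (1.33 to 3.01) there. Il2ra was 5.34-fold (3.87 to 7.24) and 6.05-fold (4.60 to 7.89) higher, Ikzf2 4.02-fold (3.18 to 5.02) and 6.18-fold (5.27 to 7.23), and Tnfrsf4 3.72-fold (2.75 to 4.93) and 4.86-fold (3.81 to 6.13). Ccr8, with 11 and 9 UMIs in the Foxp3-positive barcodes, was 4.69-fold (2.25 to 8.86) and 2.83-fold (1.24 to 5.70) higher. The macrophage markers were lower in Foxp3-positive than in Foxp3-negative mixed barcodes (6384 against 9919 CPM and 5692 against 8566 CPM), while the T cell marker sum was alike (1006 against 1042 CPM and 1207 against 1018 CPM). What share of each of these barcodes was T cell RNA was not tested.

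Macrophages with a Foxp3 UMI were 15 of 4596 (0.326%) and 21 of 5608 (0.374%). Tnfrsf4 was at 216 against 10.1 CPM (Control) and 154 against 7.07 CPM (Sitagliptin), ratios of 21.3 (13.1 to 32.9) and 21.8 (14.9 to 31.1). Of the 8 genes 7 were at least 1.5-fold higher in both libraries, against 5.18% of 14178 genes. Ccr8, the exception, had no UMI in the Control and 10 UMIs in the Sitagliptin macrophages with Foxp3. T cell markers moved with Foxp3 in macrophages: 60.0% and 61.9% of the Foxp3-positive ones had a T cell marker UMI, against 16.3% and 17.1% of the Foxp3-negative ones. Their summed T cell marker level was 265 against 48.6 CPM and 229 against 42.2 CPM, and its part in the result was not tested.

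The 5 costimulatory receptor genes Tnfrsf4, Tnfrsf9, Tnfrsf18, Icos and Cd28 were also counted together in each barcode after thinning to 2000 UMIs. In Foxp3-positive T cells 3 or more of the 5 were seen in 7 of 8 and 9 of 15 cells. Among Foxp3-negative T cells 3 were seen in 16.9% and 18.8%, 4 in 8.21% and 7.20% and all 5 in 1.03% and 1.39%. NK cells mostly had 1 (41.0% and 45.2%) or none (20.5% and 31.5%). None of the 5 was seen in 81.5% and 82.4% of macrophages and in 95.8% and 97.0% of the cells with little Ptprc, of which none had more than 1.

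**Figure D4:**
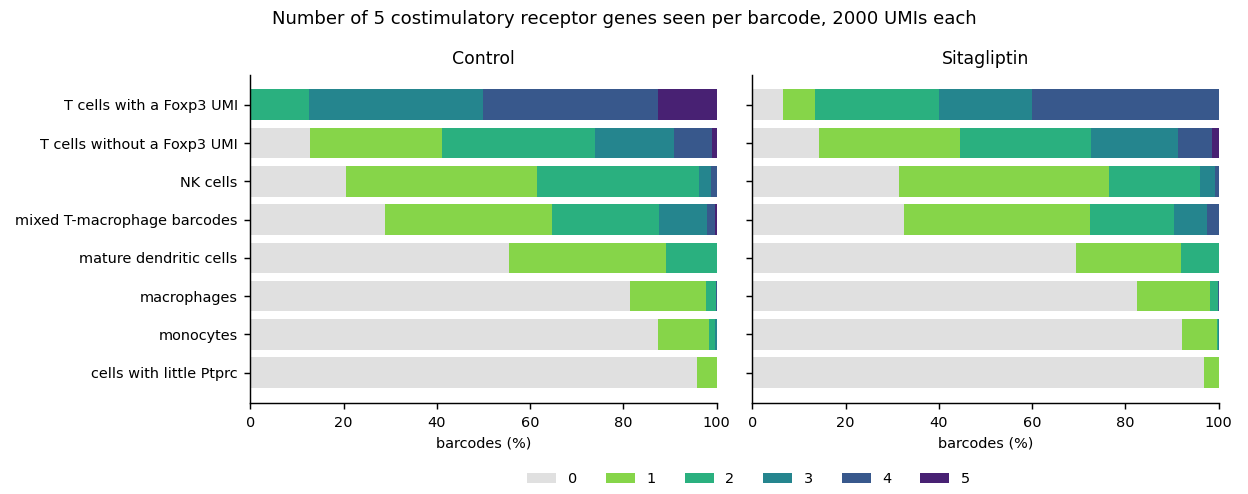
Share of barcodes (horizontal axis, percent) by the number of the 5 genes Tnfrsf4, Tnfrsf9, Tnfrsf18, Icos and Cd28 with at least 1 UMI after thinning each barcode to 2000 UMIs, by class, for the Control library (left) and the Sitagliptin library (right). Foxp3-positive T cells show the most genes per barcode, and 95.8% and 97.0% of the cells with little Ptprc show none.

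Between the diets, the TNF receptor family genes and Ikzf2 were somewhat lower in the T cells of the Sitagliptin library, and Icos and Cd28 were not. Tnfrsf4 was at 219 and 155 CPM, a ratio of Sitagliptin over Control of 0.708 (0.581 to 0.865). Tnfrsf18, at 299 and 236 CPM, had a ratio of 0.791 (0.671 to 0.934), and Tnfrsf9, at 759 and 636 CPM, one of 0.838 (0.757 to 0.928). Ikzf2, at 659 and 559 CPM, had a ratio of 0.849 (0.762 to 0.948). For these 4 genes the interval lay below 1. Icos had a ratio of 1.05 (0.907 to 1.22), Cd28 at 1.10 (0.882 to 1.37), Il2ra at 0.937 (0.778 to 1.13) and Foxp3 at 0.875 (0.407 to 1.964). Only Ccr8 passed 1.5-fold, at 0.556 (0.270 to 1.15) from 17 and 18 UMIs, an interval that holds 1. This is 1 of 9 genes, against 18.5% of 8127 genes in T cells. The median log2 ratio of the 9 genes was -0.24, against -0.06 over all genes.

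Cycling T cells, called from Mki67, Top2a, Cdk1 and Birc5, were 65 of the 203 Control T cells (32.0%) and 75 of the 376 Sitagliptin T cells (19.9%). Without them the Tnfrsf4 ratio turned to 1.07 and the Ikzf2 ratio to 1.18. Among Foxp3-negative cycling T cells Ikzf2 was at 756 and 292 CPM, while in the non-cycling ones it was at 554 and 555 CPM, so the Ikzf2 difference lay in the cycling cells. In all Foxp3-negative T cells Tnfrsf18 had a ratio of 0.792 (0.665 to 0.945), with an interval below 1, and Tnfrsf4 one of 0.815 (0.646 to 1.03). In the non-cycling ones Tnfrsf18 was at 0.845 (0.676 to 1.06) and Tnfrsf4 at 1.06 (0.770 to 1.48), so both intervals held 1 there. Tnfrsf9 kept its direction, with a ratio of 0.824 (0.723 to 0.940) in non-cycling Foxp3-negative T cells and 0.758 (0.672 to 0.856) in Foxp3-negative T cells with Cd8 UMIs only. In the latter, Tnfrsf9 was at 830 and 629 CPM, Ikzf2 had a ratio of 0.726 (0.610 to 0.866) and Icos one of 1.06 (0.879 to 1.28). The few Foxp3-positive T cells, 8 and 15, differed from this. There Tnfrsf9 (820 and 1444 CPM) and Ikzf2 (1192 and 2160 CPM) were higher in the Sitagliptin library. Tnfrsf4 (1391 and 640 CPM) and Tnfrsf18 (671 and 515 CPM) were lower.

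Other genes of the same pathways were read in T cells from lists chosen with earlier results of these data known. Of 26 regulatory T cell genes 23 had at least 20 UMIs, 5 were at least 1.5-fold lower (10.4% of all 8127 genes were) and none was that much higher (8.1% of all genes were), with a median log2 ratio of -0.28. The 5 were Ctla4, Capg, Klrg1, Ikzf4 and Itgb8, the last 4 named after their values were seen. In Foxp3-negative T cells 1 of 20 counted genes was that much lower (838 of all 8000 genes were), with a median of -0.18 (-0.06 over all genes). In those with Cd8 UMIs only it was 2 of 17 (814 of all 7192), with a median of -0.23 (-0.07). In non-cycling Foxp3-negative T cells it was 1 of 18 (822 of all 6839), with a median of -0.06 (-0.05), near that of all genes. None of these counts stood out from the share over all genes. The cause of the shifts in the medians was not tested. The values that follow are again for all T cells. The inhibitory receptor gene Ctla4 was at 371 and 245 CPM, a ratio of 0.659 (0.565 to 0.769), and the actin capping gene Capg at 224 and 143 CPM, a ratio of 0.641 (0.524 to 0.784). The growth factor gene Areg was at 324 and 250.4 CPM, a ratio of 0.772 (0.658 to 0.906). Tgfb1, the gene of the cytokine TGF-beta, went the other way, at 263 and 363 CPM with a ratio of 1.38 (1.18 to 1.62). None of 15 TRAF and NF-kB genes passed 1.5-fold and the median was -0.08. In that list Tnfaip3, which encodes the NF-kB inhibitor A20, was at 527 and 500.1 CPM, the inhibitor gene Nfkbia had a ratio of 0.701 (0.615 to 0.8001), and the NF-kB subunit genes Rel and Nfkb1 had ratios of 1.31 (1.15 to 1.502) and 1.27 (1.09 to 1.48). Among 11 ligands and partner chains 6 were counted and 1 passed 1.5-fold upward, Ccl1, a ligand of CCR8, at 56.5 and 89.0 CPM with a ratio of 1.58 (1.12 to 2.25). The partner chains of the interleukin 2 receptor, Il2rg and Il2rb, had ratios of 0.972 (0.865 to 1.09) and 0.878 (0.745 to 1.04). Of 11 genes of interleukin 2 signalling, 1 passed upward, the transcription factor gene Stat5b at 1.54 (1.11 to 2.15), and 1 downward, Myc at 0.621 (0.338 to 1.15), the latter named after its value was seen. The kinase gene Jak1, with the most UMIs of that list, was at 477 and 449 CPM. None of 8 counted genes among 16 further costimulatory genes passed.

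**Figure D5:**
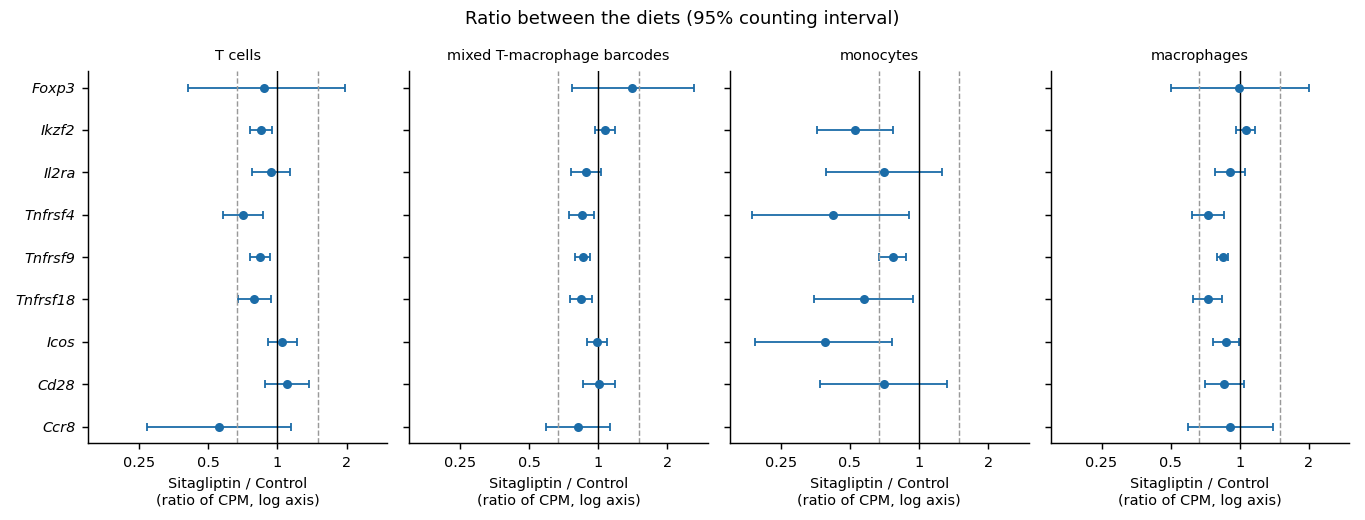
Ratio of CPM, Sitagliptin over Control (horizontal log axis), of the 9 genes in T cells, mixed T-macrophage barcodes, monocytes and macrophages; bars are exact conditional 95% intervals for counting error, dashed lines mark 1.5-fold in either direction, and genes with under 20 UMIs are not drawn. Tnfrsf4, Tnfrsf9 and Tnfrsf18 lie left of 1 in all 4 classes, with Tnfrsf9 between 0.767 and 0.856; in the cells with little Ptprc, not drawn, Tnfrsf9 was at 0.779.

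In mixed barcodes 0 of 9 genes passed 1.5-fold, against 8.9% of 10979 genes, and in macrophages 0 of 9, against 11.1% of 14179 genes. The 3 TNF receptor family genes were again below 1 in both. In the cells with little Ptprc, the background, Tnfrsf9 was also below 1, at 19.7 and 15.4 CPM with a ratio of 0.779 (0.659 to 0.920). Tnfrsf4 (14 and 6 UMIs) and Tnfrsf18 (15 and 9 UMIs) had ratios there of 0.520 (0.164 to 1.44) and 0.728 (0.281 to 1.78). Icos, with 11 and 16 UMIs, was at 1.76 (0.769 to 4.20) there. With Tnfrsf4 and Icos, 2 of 5 counted genes passed 1.5-fold in that class, against 7.36% of 12861 genes, both on few UMIs. A lower Tnfrsf9 level was thus not limited to the immune classes. Whether the Tnfrsf9 UMIs in the cells with little Ptprc are their own RNA or background was not tested. In mixed barcodes Tnfrsf4 was at 0.847 (0.746 to 0.960), Tnfrsf9 at 0.856 (0.796 to 0.922) and Tnfrsf18 at 0.840 (0.750 to 0.941). In macrophages Tnfrsf4 was at 0.726 (0.616 to 0.855), Tnfrsf9 at 0.842 (0.794 to 0.892) and Tnfrsf18 at 0.725 (0.626 to 0.839). Macrophages with no T cell marker UMI had Tnfrsf9 at 0.869 (0.811 to 0.931) and Tnfrsf4 at 0.665 (0.460 to 0.961), while Ikzf2 was at 1.17 (1.01 to 1.37). The mixed class depended on its limits: with stricter marker limits Foxp3 was at 3.37, Il2ra at 0.624 and Tnfrsf4 at 0.562 there.

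Monocytes had 4 of 7 counted genes at least 1.5-fold lower in the Sitagliptin library, more than T cells, mixed barcodes and macrophages. Of all 10870 genes 13.3% were that much lower and 16.3% passed in either direction. Ikzf2 was at 15.4 and 8.10 CPM, a ratio of 0.527 (0.359 to 0.768). Tnfrsf4 had 20 and 12 UMIs and a ratio of 0.421 (0.188 to 0.905), and Icos 27 and 15 UMIs and a ratio of 0.390 (0.193 to 0.760). Tnfrsf18 had 39 and 32 UMIs and a ratio of 0.576 (0.349 to 0.944). T cell markers moved with these genes, at 16.5 and 10.001 CPM in the monocytes, and 5.05% and 3.41% of monocytes had a T cell marker UMI. How much of the difference these barcodes carry was not tested beyond leaving them out. In monocytes without one, Ikzf2 was at 0.861 (0.509 to 1.47) and Icos, with 14 and 6 UMIs, at 0.295 (0.0929 to 0.817). Tnfrsf18 was at 0.574 (0.269 to 1.21) in them, and Il2ra, with 8 and 21 UMIs, turned to 1.81 (0.769 to 4.72). With stricter marker limits no gene passed in monocytes.

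NK cells (78 and 124) and mature dendritic cells (74 and 75) had under 100 barcodes in at least 1 library and were not compared between diets. Their levels are given above, and for Tnfrsf9 in NK cells the intervals were 698 to 887 CPM (Control) and 427 to 543 CPM (Sitagliptin).

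As a description of which genes had a like pattern, each gene was correlated with 14326 others over 20 profiles, 10 classes in 2 libraries, on the scale log2(CPM + 10). The profiles share libraries, and the class structure alone gives high values. For Foxp3 the nearest were Ermn, Sit1 and Rgs8 (r = 0.985, 0.984 and 0.983), and for Ikzf2 Zap70, Gimap8 and Camk4 (0.979, 0.977 and 0.975). Il2ra was nearest to Cblb, Il12rb2 and Kansl1 (0.922, 0.894 and 0.890), and Tnfrsf4 to Themis, Izumo1r and Slamf1 (0.905, 0.888 and 0.879). Tnfrsf9 and Tnfrsf18 shared their nearest gene, the interleukin 12 receptor chain Il12rb2 (0.960 and 0.959), followed by H2-K1 and Lnpep (0.944 and 0.935) and by Kdm2b and Satb1 (0.944 and 0.942). Camk4 and Klrc1 were among the 3 genes nearest to Icos (0.982 and 0.981). Cd28 lay nearest to Ms4a4b, Prkcq and Thy1 (0.980, 0.980 and 0.975), and Ccr8 to Cxcr6, Cd5 and Cd3g (0.956, 0.951 and 0.948).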

How the data were processed

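The values are unnormalized UMI counts of genes by barcodes, as the authors deposited them for each library with Ensembl IDs and symbols. Counting program, genome build and annotation: not given in the sources used here. Rows sharing a symbol were summed. All barcodes passed filters of 200 genes, 500 UMIs and at most 20% mitochondrial UMIs. Scrublet (in scanpy 1.11.5, expected rate 0.06) marked 0 barcodes by its automatic threshold, so the highest 6% of scores were removed (522 and 586 barcodes).

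A barcode was positive for a class with at least 3 marker UMIs and a marker sum of at least 500 CPM (T and NK cells), 1500 CPM (monocytes and macrophages) or 1000 to 2000 CPM (other classes). Cells with little Ptprc had at most 100 CPM of it. These limits were set after the depth was seen. Groups came from the treatment label. Counts were added up within each class of a library and expressed as CPM, with exact Poisson 95% intervals; ratios had exact conditional binomial intervals, shares Clopper-Pearson intervals and ratios of shares Katz intervals, computed with scipy 1.17.1 and tested on simulated data. Ratios needed at least 20 UMIs over both groups compared and both libraries to be counted, and classes 100 barcodes per library to be compared between diets. Thinning drew 2000 UMIs per barcode. Levels of different genes were not compared with each other, since no length scaling applies.

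All 9 genes were named in every class, with the 3 most correlated genes each (at least 50 UMIs; 1 of them is not reported here), the genes highest with Foxp3, and up to 4 per list by UMIs. The genes and lists were chosen with earlier results of these data known. Alternatives were other doublet, marker, depth, scaling and count settings.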

Additional observations from a re-analysis of the deposited data

How the results depend on the processing

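With other settings the share of T cells with a Foxp3 UMI had a ratio between 0.450 (thinned to 2000 UMIs) and 1.68 (without cycling T cells), all inside its interval. The count of genes past 1.5-fold in T cells, 1 of 9, became 0 with looser marker limits, 0 with mixed barcodes counted as T cells, 0 with at least 100 UMIs and 0 at 2-fold, and 2 (Foxp3 at 0.493 and Ccr8) with stricter limits. In mixed barcodes it went from 0 to 3 with stricter limits and 2 with classes called after thinning. In monocytes it went from 4 to 0 with stricter limits and 1 with at least 100 UMIs, and in macrophages from 0 to 1 with looser limits, with stricter limits, after thinning and without T cell marker UMIs, the last chosen after seeing the data. In macrophages without T cell marker UMIs 10.4% of 13736 genes passed in either direction. For the other settings the share over all genes is not given here, so these counts are not read as results about the 9 genes. Over the 8 other genes and both libraries the median ratio of Foxp3-positive to Foxp3-negative T cells, 2.42, was 1.18 among T cells with a Cd4 UMI, where Tnfrsf18 turned to 0.840 (Control) and 0.683 (Sitagliptin) and Ccr8 had 0 UMIs in Foxp3-positive Control cells; fewer cells entered there. The cause of the other shifts was not tested. Leaving out the barcode with most UMIs of a gene, also chosen after seeing the data, kept the median T cell ratio at 0.870. No paired analysis was possible because each diet had 1 library. Foxp3, with 12 and 20 UMIs in T cells, and Ccr8, with 17 and 18, were too sparse for differences under 2-fold to be seen. NK cells and dendritic cells had too few barcodes for a comparison.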
